A study of Mus musculus with 8 samples.

Results

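Transcripts of 10 genes used as markers of brain pericytes were followed in bulk RNA sequencing of C57BL/6 mouse brain. The genes were Pdgfrb, Rgs5, Kcnj8, Abcc9, Higd1b, Vtn, Ndufa4l2, Atp13a5, Anpep and Notch3. They were taken by symbol from a table of 55780 genes, and each of the 10 symbols matched 1 row. The control group, named Ctrl, held 4 libraries from untreated mice. The treated group, named Ep1, also held 4 libraries, labelled as having received PDT, at 10 J/cm2 in Ep1 1 and Ep1 2 and at 20 J/cm2 in Ep1 3 and Ep1 4. Because MNP appears in the title and magnetic force in the design text, these sources do not settle what the treatment was. The labels used here give no age, sex or time after treatment. They do not tie libraries to individual mice, and the spread on which the p-values rest may therefore be technical.

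Pericytes are mural cells that sit on capillaries within the basement membrane shared with the endothelium. In the brain they are known for their part in capillary tone, in vessel stability and in the blood-brain barrier. Endothelial cells secrete PDGF-B, which recruits and holds pericytes through the receptor encoded by Pdgfrb, and Notch signalling between endothelium and mural cells acts through Notch3. Several of the 10 genes are also known outside pericytes: Pdgfrb, Rgs5 and Notch3 in vascular smooth muscle, and Pdgfrb and Anpep in fibroblasts. In bulk RNA, fewer pericytes and less RNA per pericyte cannot be told apart.

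Values are FPKM, fragments scaled by gene length and library size, and were tested as log2(FPKM + 1). Behind them stood 15038147 to 17772972 fragments per library. The labels name brain microvessel endothelial cells beside brain tissue. The 10 neuron markers examined summed to between 1573 and 1722 FPKM in Ctrl, against 94.4 to 103 FPKM for 15 endothelial markers, and no endothelial marker was at 0. Ctrl 3 carried 5.08% mitochondrial fragments, against 3.21% to 3.61% in the other 7 libraries, and it held the lowest Ctrl value of 6 of the 10 pericyte genes and the highest of 3.

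Of the pericyte genes, 4 were lower in Ep1 and none was higher. In mean FPKM, Atp13a5 fell by 54.7%, Anpep fell by 52.6%, Rgs5 fell by 24.3% and Notch3 fell by 20.9%. Pdgfrb stood at nearly the same level in both groups, Kcnj8 had the larger mean in Ep1 without passing the test, and Vtn, Higd1b and Ndufa4l2 had smaller means without passing. Abcc9 lay below the level needed for testing. Testing needed a group mean of 1 FPKM or more, which 9 of the 10 had. Anpep and Ndufa4l2 had it only in Ctrl, where they were higher, so their place among the tested genes depends on that level. Of the 9, 4 passed downward and 0 upward at a limma adjusted p under 0.05, and 5 did not pass. At an unadjusted limma p under 0.05 the counts were also 4 and 0, where 5872 of all 14710 tested genes passed in either direction. At the adjusted threshold, 10.6% of the 14710 genes were called lower and 15.5% higher. The median difference was -0.24 on the log2 scale over the 9 genes and 0.01 over all tested genes. With no filter on low values it was -0.21 over all 10 genes and -0.01 over 33219 genes. For 4 of the 10 genes all Ep1 values lay below all Ctrl values, and for none above. Among tested genes that held for 14.1% and 17.7%.

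**Figure D1:**
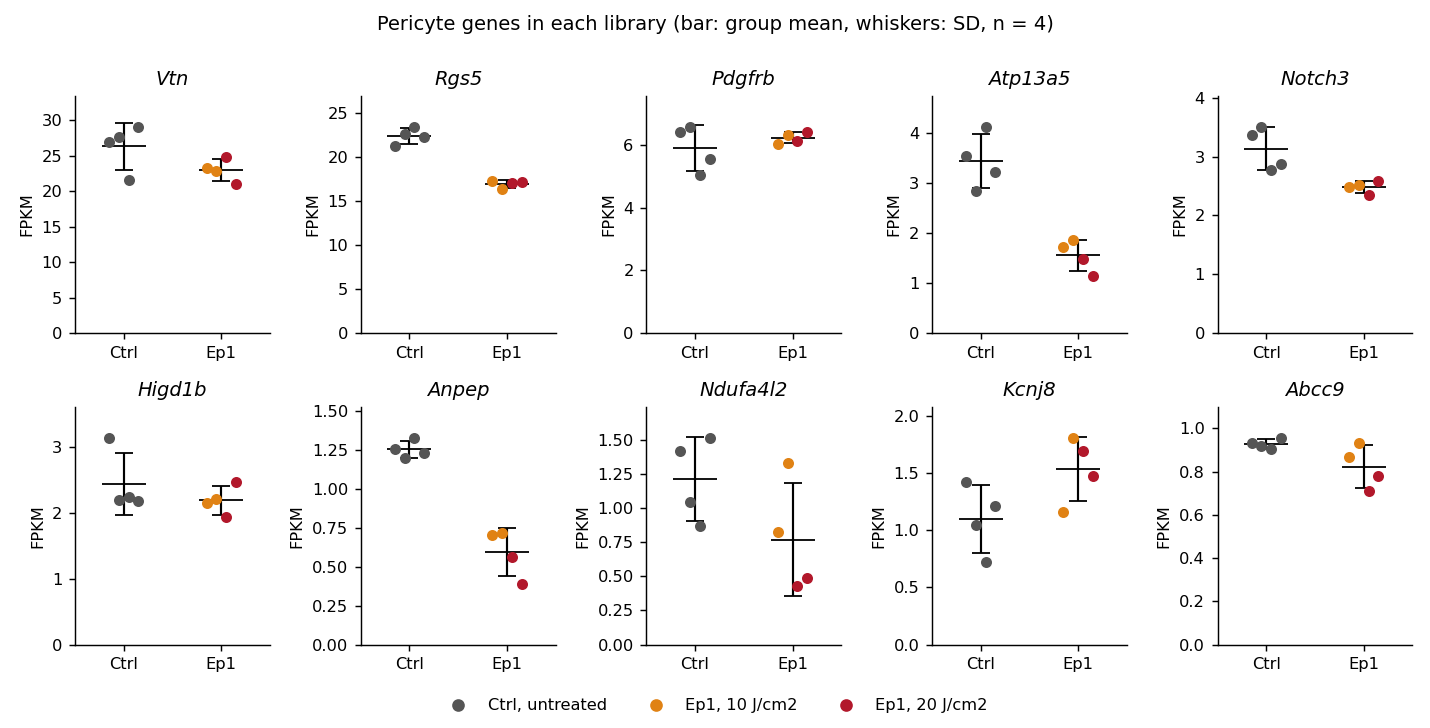
Level of each pericyte gene in FPKM (vertical axes, from 0) in the 4 Ctrl libraries (grey) and the 4 Ep1 libraries (orange for 10 J/cm2, red for 20 J/cm2), with group means and SD. The groups are apart for Rgs5, Atp13a5, Anpep and Notch3 and overlap for the other 6 genes.

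The 10 genes spanned a wide range of levels in Ctrl, compared here per gene length. Vtn (26.3 FPKM) and Rgs5 (22.4 FPKM) stood highest, with overlapping libraries, and Pdgfrb (5.89 FPKM) followed apart from both. Atp13a5 (3.44 FPKM) overlapped with Notch3 (3.13 FPKM) and Notch3 with Higd1b (2.43 FPKM). Anpep (1.26 FPKM), Ndufa4l2 (1.21 FPKM), Kcnj8 (1.10 FPKM) and Abcc9 (0.928 FPKM) formed the lowest stretch, in which each overlapped with the next. In Ep1 the order changed below Pdgfrb. Notch3 and Higd1b stood above Atp13a5 there, Kcnj8 took rank 7 and Anpep was the lowest of the 10.

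Of the 2 receptor genes, Notch3 passed the test and Pdgfrb did not. Pdgfrb (ENSMUSG00000024620, chromosome 18 at 61045150 to 61085061 in GRCm38) encodes the PDGF receptor beta, a receptor tyrosine kinase. It measured 6.40, 6.58, 5.04 and 5.54 FPKM in Ctrl 1 to 4 and 6.02, 6.30, 6.12 and 6.41 FPKM in Ep1 1 to 4. All Ep1 values fell inside the range of Ctrl, whose own spread was set by the low Ctrl 3 and Ctrl 4. The means were 5.89 ± 0.723 and 6.21 ± 0.176 FPKM (SD, n = 4 each). The log2 difference was 0.07 ± 0.08 (SE, 95% confidence interval -0.11 to 0.25, limma adjusted p = 0.525). Notch3 measured 3.37, 3.51, 2.78 and 2.87 FPKM in Ctrl 1 to 4 and 2.48, 2.51, 2.34 and 2.58 FPKM in Ep1 1 to 4. The groups did not overlap, but the highest Ep1 value came close to Ctrl 3. Its means were 3.13 ± 0.362 and 2.48 ± 0.101 FPKM (log2 difference -0.24 ± 0.08 SE, limma adjusted p = 0.0445). That call was lost when any 1 library other than Ctrl 3 was left out (adjusted p from 0.0533 to 0.116), with no filter (adjusted p = 0.0926) and in the fit with 3 groups (adjusted p = 0.0563).

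Rgs5 encodes a regulator of G protein signalling that shortens signals from G protein-coupled receptors and is among the most used pericyte markers. It measured 21.3, 22.7, 23.5 and 22.4 FPKM in Ctrl 1 to 4 and 17.3, 16.4, 17.1 and 17.2 FPKM in Ep1 1 to 4. Both groups were tight and lay well apart. The means were 22.4 ± 0.923 and 17.0 ± 0.422 FPKM (log2 difference -0.38 ± 0.05 SE, limma adjusted p = 0.00119), and the gene was lower in all 18 alternatives. Of 5 tested genes of other members of its R4 subfamily, 3 rose and 0 fell. Rgs16 rose from 3.82 ± 0.917 to 9.19 ± 1.07 FPKM (limma adjusted p = 0.000966), Rgs2 from 10.7 ± 0.678 to 19.5 ± 3.10 FPKM (adjusted p = 0.00119) and Rgs8 from 11.8 ± 1.10 to 15.1 ± 2.05 FPKM (adjusted p = 0.0386).

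Kcnj8 and Abcc9 encode the pore and the sulphonylurea receptor subunit of the vascular ATP-sensitive potassium channel, and are neighbours on the minus strand of chromosome 6. Kcnj8 (ENSMUSG00000030247) lies at 142564837 to 142571614 and Abcc9 (ENSMUSG00000030249) at 142587862 to 142702315, with 16247 bases between them. Kcnj8 measured 1.43, 1.05, 0.720 and 1.21 FPKM in Ctrl 1 to 4 and 1.16, 1.81, 1.70 and 1.48 FPKM in Ep1 1 to 4. Apart from Ep1 1, the Ep1 libraries exceeded every Ctrl library. The means were 1.10 ± 0.298 and 1.54 ± 0.284 FPKM (log2 difference 0.28 ± 0.13 SE, 95% confidence interval -0.01 to 0.57, limma adjusted p = 0.142), and in none of the 18 alternatives did the gene pass. Abcc9 measured 0.930, 0.919, 0.906 and 0.956 FPKM in Ctrl 1 to 4 and 0.868, 0.935, 0.712 and 0.780 FPKM in Ep1 1 to 4. Only Ep1 2 reached the Ctrl range. Its group means, 0.928 ± 0.0213 and 0.823 ± 0.0978 FPKM, were both under the filter. In the fit without filter the log2 difference was -0.08 ± 0.07 (95% confidence interval -0.24 to 0.08, limma adjusted p = 0.542). Of the pancreatic and neuronal counterparts, Kcnj11 rose from 10.8 ± 0.365 to 15.1 ± 1.29 FPKM (adjusted p = 0.00211), and Abcc8 measured 9.45 ± 0.639 and 10.2 ± 0.912 FPKM (adjusted p = 0.319). In the list of 8 tested potassium channel subunits 3 rose and 1 fell. Kcnj12 rose from 4.23 ± 0.619 to 6.39 ± 0.412 FPKM and Kcnq5 fell from 17.0 ± 1.45 to 13.7 ± 0.910 FPKM.

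Vtn (ENSMUSG00000017344, chromosome 11 at 78499091 to 78502324) encodes vitronectin, an adhesive glycoprotein of the extracellular matrix that binds integrins. It measured 26.9, 27.6, 21.6 and 29.1 FPKM in Ctrl 1 to 4 and 23.3, 22.9, 24.7 and 20.99 FPKM in Ep1 1 to 4. The other Ctrl libraries stood above all of Ep1, while Ctrl 3 lay inside the Ep1 range. The means were 26.3 ± 3.28 and 23.0 ± 1.55 FPKM (log2 difference -0.18 ± 0.09 SE, 95% confidence interval -0.39 to 0.03, limma adjusted p = 0.179). Without Ctrl 3 the gene passed downward (log2 difference -0.27, adjusted p = 0.0137), and after quantile normalization it passed as well (adjusted p of 0.0402). Among 8 tested integrin subunits and partners of vitronectin, 3 rose and 1 fell. Plaur, the urokinase receptor gene, rose from 0.230 ± 0.0598 to 4.07 ± 1.34 FPKM (adjusted p = 0.000233), and the urokinase gene Plau rose from 4.17 ± 0.637 to 7.37 ± 1.23 FPKM (adjusted p = 0.00386). Plaur was below 1 FPKM in Ctrl and entered the test through Ep1. Itgb8, an integrin subunit, fell from 5.40 ± 0.368 to 3.40 ± 0.417 FPKM (adjusted p = 0.00197).

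Anpep encodes aminopeptidase N, also called CD13, a peptidase of the cell surface. It measured 1.26, 1.201, 1.33 and 1.23 FPKM in Ctrl 1 to 4 and 0.703, 0.720, 0.565 and 0.391 FPKM in Ep1 1 to 4. Every Ep1 value lay far under the narrow Ctrl range, and Ep1 4 was the lowest. The means were 1.26 ± 0.0549 and 0.595 ± 0.153 FPKM (log2 difference -0.50 ± 0.10 SE, limma adjusted p = 0.00643), which on the log2(FPKM + 1) scale understates the change of so low a gene. With a pseudocount of 0.1 the difference was -0.99. Anpep was tested only because its Ctrl mean passed the filter. With no filter its limma adjusted p was 0.0108. The gene was lower in all 17 alternatives that could be computed. Of 6 tested aminopeptidases of the same M1 family 2 fell and 0 rose. Trhde fell from 5.75 ± 0.733 to 3.93 ± 0.358 FPKM (adjusted p = 0.00687) and Npepps from 23.0 ± 0.569 to 20.1 ± 0.673 FPKM (adjusted p = 0.0199).

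Atp13a5 encodes a P5-type ATPase whose expression in the mouse brain is largely restricted to pericytes. It measured 3.54, 2.86, 4.14 and 3.23 FPKM in Ctrl 1 to 4 and 1.73, 1.87, 1.49 and 1.16 FPKM in Ep1 1 to 4. No library of one group came near the other. The means were 3.44 ± 0.542 and 1.56 ± 0.311 FPKM (log2 difference -0.80 ± 0.12 SE, limma adjusted p = 0.00184), the largest difference among the 9 tested pericyte genes, and the gene was lower in all 18 alternatives. None of the 4 related ATPase genes, Atp13a1 to Atp13a4, passed in either direction.

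Higd1b (ENSMUSG00000020928, chromosome 11 at 102835849 to 102838040) and Ndufa4l2 (ENSMUSG00000040280, chromosome 10 at 127514967 to 127517154) encode small mitochondrial proteins. Higd1b measured 3.13, 2.19, 2.24 and 2.17 FPKM in Ctrl 1 to 4 and 2.14, 2.21, 1.93 and 2.46 FPKM in Ep1 1 to 4, so that apart from Ctrl 1 the groups overlapped throughout. The log2 difference was -0.10 ± 0.10 (SE, 95% confidence interval -0.33 to 0.13, limma adjusted p = 0.488). Ndufa4l2, a target of hypoxia-inducible factors, measured 1.42, 1.05, 0.866 and 1.52 FPKM in Ctrl 1 to 4 and 0.829, 1.33, 0.427 and 0.492 FPKM in Ep1 1 to 4. Ep1 2 lay within the Ctrl range and the other 3 Ep1 libraries below it. The means were 1.21 ± 0.308 and 0.770 ± 0.415 FPKM (log2 difference -0.34 ± 0.17 SE, 95% confidence interval -0.73 to 0.05, limma adjusted p = 0.174). Without Ep1 2 it passed (log2 difference -0.48, adjusted p = 0.0419). Its relative Ndufa4, a subunit of cytochrome c oxidase, measured 99.3 ± 6.43 and 101 ± 8.46 FPKM, and Higd1a, a relative of Higd1b, rose from 16.4 ± 1.69 to 23.6 ± 1.58 FPKM (adjusted p = 0.00277). Of 13 tested genes of hypoxia-inducible factors, their regulators and their targets 8 rose and 0 fell. The 8 included Vhl, a regulator of these factors. Adm, also among the 8 (0.631 FPKM in Ctrl and 7.56 FPKM in Ep1), was tested only through its Ep1 mean. Vegfa, the vascular endothelial growth factor gene, rose from 19.8 ± 0.844 to 32.1 ± 5.51 FPKM (adjusted p = 0.00377) and Slc2a1, the glucose transporter gene of the blood-brain barrier, from 28.7 ± 2.36 to 45.9 ± 7.21 FPKM (adjusted p = 0.00351).

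**Figure D2:**
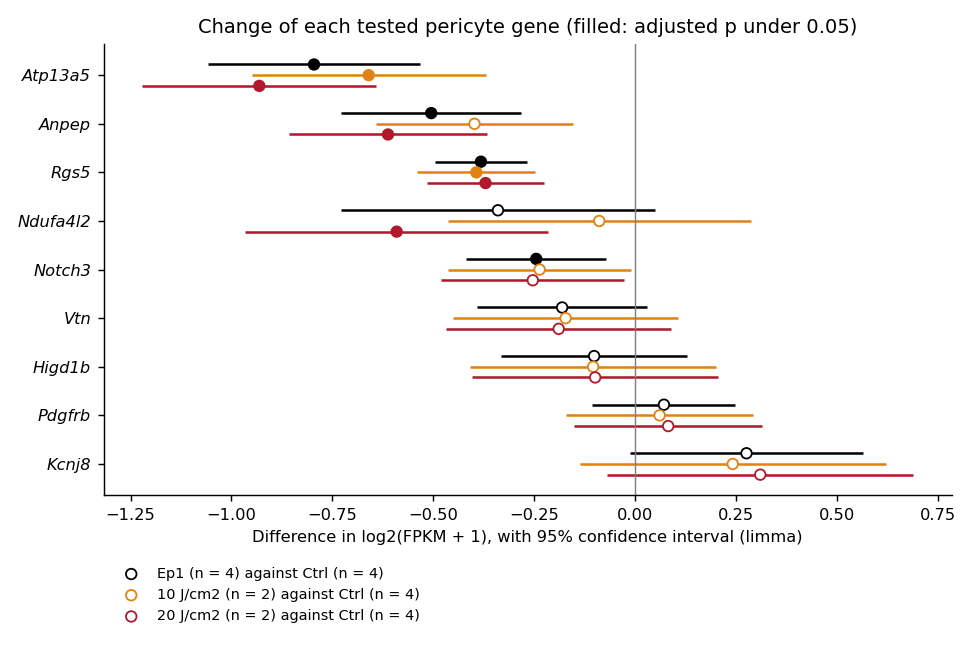
Difference from Ctrl in log2(FPKM + 1) for the 9 tested pericyte genes (horizontal axis), with 95% confidence intervals from limma, for all of Ep1 (black), 10 J/cm2 (orange) and 20 J/cm2 (red). Filled points have an adjusted p under 0.05: Atp13a5, Anpep, Rgs5 and Notch3 for all of Ep1.

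At the 2 energies, each with 2 libraries set against the same 4 Ctrl libraries in 1 fit, Rgs5 and Atp13a5 passed at both. At 10 J/cm2, 2 of the 9 tested genes passed downward and 0 upward, where 3.26% of all tested genes were lower. They were Rgs5 (log2 difference -0.39, limma adjusted p = 0.0110) and Atp13a5 (-0.66, adjusted p = 0.0185). Anpep stood just outside (-0.40, adjusted p = 0.0521) and passed under plain variance (0.0183) or quantile normalization (0.0408). At 20 J/cm2, 4 passed downward and 0 upward, where 9.66% of tested genes were lower. These were Atp13a5 (-0.93, adjusted p = 0.00292), Rgs5 (-0.37, adjusted p = 0.00651), Anpep (-0.61, adjusted p = 0.00687) and Ndufa4l2 (-0.59, adjusted p = 0.0343). Anpep and Ndufa4l2 were tested through their Ctrl means alone. With no filter, the call of Ndufa4l2 at 20 J/cm2 (adjusted p = 0.0706) and that of Atp13a5 at 10 J/cm2 (adjusted p = 0.0510) were lost, while that of Anpep at 20 J/cm2 was kept (adjusted p = 0.0112).

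The difference between the energies was tested directly, and 0 of the 9 genes passed in limma, where 0.0068% of tested genes did, which was 1 gene. Ndufa4l2 had an unadjusted limma p of 0.0285, the 1 gene of the 9 under 0.05, where 1019 of all 14710 tested genes were. It stood at 1.08 FPKM at 10 J/cm2 and 0.459 FPKM at 20 J/cm2 (log2 difference -0.50, 95% confidence interval -0.94 to -0.07, adjusted p = 0.688). Atp13a5 stood at 1.80 and 1.32 FPKM (-0.27, -0.61 to 0.06) and Anpep at 0.711 and 0.478 FPKM (-0.21, -0.50 to 0.07). For Rgs5 the interval was narrow, from -0.15 to 0.19 around a difference of 0.02. With 2 libraries each, several calls changed when 1 library was left out. Without Ctrl 3, Vtn (adjusted p = 0.0288) and Notch3 (0.0471) passed at 20 J/cm2. Leaving out an Ep1 library left 1 at that energy, so a call lost there need not mean a smaller difference. The 10 J/cm2 calls of Rgs5 (log2 difference -0.43) and Atp13a5 (-0.62) were lost without Ep1 1, and that of Atp13a5 (-0.70) without Ep1 2. The 20 J/cm2 call of Rgs5 was lost without Ep1 3 (-0.36) or Ep1 4 (-0.38), and that of Anpep without Ep1 4 (-0.53). That of Ndufa4l2 was lost without any 1 of Ctrl 1, Ctrl 2 and Ctrl 4 (limma adjusted p from 0.0577 to 0.0763). It was also lost without Ep1 3 (log2 difference -0.56) or Ep1 4 (-0.62).

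The fragments behind each value put a limit on its precision. Rgs5 rested on 1162 to 1887 fragments per library, Vtn on 633 to 1025, Pdgfrb on 437 to 660 and Notch3 on 310 to 520. Atp13a5 had 80 to 305 and Abcc9 97 to 141. The lowest were Anpep with 24 to 91, Kcnj8 with 29 to 79, Higd1b with 28 to 46 and Ndufa4l2 with 8 to 28. Counting error alone gives Ndufa4l2 a coefficient of variation of 26.7% in Ep1, and the libraries varied by 53.8%. The Ep1 libraries include both energies, so their variation also holds any difference between these. In Ctrl, Vtn varied by 12.5% against 3.31% from counting, and Pdgfrb by 12.3% against 4.25%. Notch3 varied there by 11.6% against 4.79%, and Atp13a5 by 15.7% against 6.06%. Abcc9 (2.29% against 8.68%) and Anpep (4.37% against 10.6%) varied less in Ctrl than counting gives. In Ep1, Pdgfrb (2.82% against 4.23%) and Notch3 (4.07% against 5.52%) did so too. Rgs5 varied by 4.11% in Ctrl and 2.49% in Ep1, against 2.40% and 2.81% from counting. Reads without molecular identifiers are not independent molecules, so these figures cover counting error only.

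**Figure D3:**
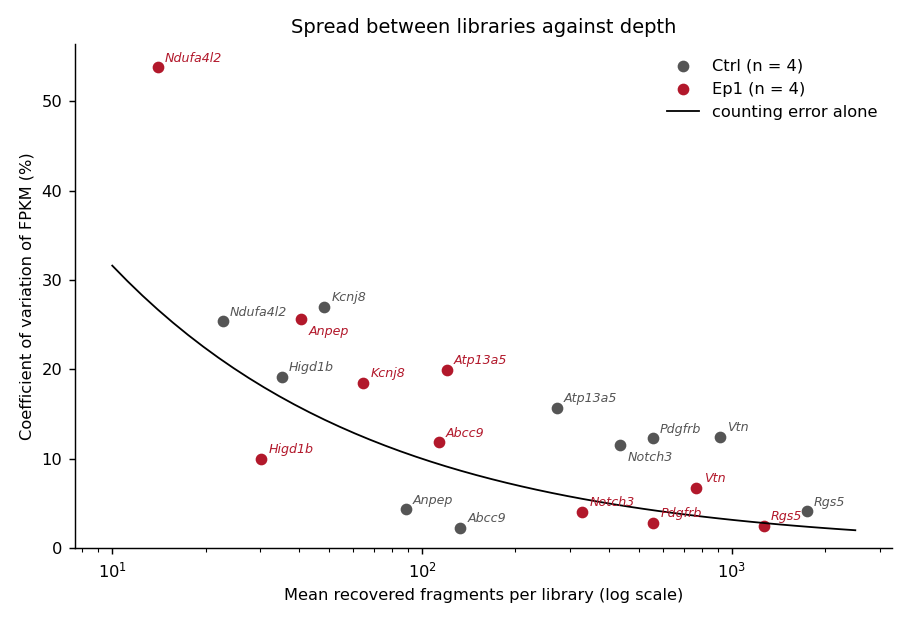
Coefficient of variation of FPKM between the 4 libraries of a group (vertical axis, percent) against the mean number of recovered fragments per library (horizontal axis, log scale) for each pericyte gene in Ctrl (grey) and Ep1 (red). The line is the variation that counting alone would give, and Ndufa4l2 in Ep1 lies farthest above it at 53.8%. Variation in Ep1 includes any difference between the energies.

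All 10 genes are placed by the table on coordinates that match GRCm38. The 4 that fell lie on different chromosomes. Rgs5 (ENSMUSG00000026678) is on chromosome 1 at 169655501 to 169695813 and Anpep (ENSMUSG00000039062) on chromosome 7 at 79821803 to 79861059. Atp13a5 (ENSMUSG00000048939) is on chromosome 16 at 29231851 to 29378732 and Notch3 (ENSMUSG00000038146) on chromosome 17 at 32120820 to 32166852. In GENCODE M21 the antisense gene Gm17276 shares 488 of the 8089 exonic bases of Notch3, and it stood at 0.749 ± 0.0779 FPKM in Ctrl and 0.764 ± 0.174 FPKM in Ep1. Strandedness was not stated, so reads of the pair cannot be told apart. Ndufa4l2 shares 32 of 1095 exonic bases with Shmt2 on the opposite strand. An antisense gene that shares 158 bases with Abcc9 was listed at 0 in all libraries.

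The promoters of the 4 genes that fell are shown because these genes moved in the same direction. They are RefSeq windows from 250 bases before to 50 bases after the start of the gene, in build GRCm38.p6, written 5′ to 3′ on the strand of the gene. Capitals mark GC boxes, found as GGGCGG on either strand. Rgs5 is at chr1:169655251-169655550 on the plus strand, and Atp13a5 at chr16:29378683-29378982, Anpep at chr7:79848161-79848460 and Notch3 at chr17:32166841-32167140 on the minus strand.
Rgs5: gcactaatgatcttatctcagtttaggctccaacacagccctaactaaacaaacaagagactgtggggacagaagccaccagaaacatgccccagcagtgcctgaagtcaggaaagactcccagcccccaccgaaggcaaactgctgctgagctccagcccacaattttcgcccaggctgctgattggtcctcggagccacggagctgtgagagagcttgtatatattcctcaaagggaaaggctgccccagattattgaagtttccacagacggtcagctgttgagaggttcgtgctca
Atp13a5: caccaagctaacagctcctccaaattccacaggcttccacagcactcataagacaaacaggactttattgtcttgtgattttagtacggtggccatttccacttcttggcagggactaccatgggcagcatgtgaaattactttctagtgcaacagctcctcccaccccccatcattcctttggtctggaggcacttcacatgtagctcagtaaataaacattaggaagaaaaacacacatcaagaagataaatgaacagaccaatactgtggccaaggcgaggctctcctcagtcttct
Anpep: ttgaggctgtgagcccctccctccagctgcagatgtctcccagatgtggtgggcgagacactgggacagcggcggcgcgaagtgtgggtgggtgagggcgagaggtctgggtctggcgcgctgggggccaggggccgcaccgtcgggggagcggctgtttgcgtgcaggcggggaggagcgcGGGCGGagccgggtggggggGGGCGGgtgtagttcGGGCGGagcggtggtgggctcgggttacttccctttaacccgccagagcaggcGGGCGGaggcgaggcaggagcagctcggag
Notch3: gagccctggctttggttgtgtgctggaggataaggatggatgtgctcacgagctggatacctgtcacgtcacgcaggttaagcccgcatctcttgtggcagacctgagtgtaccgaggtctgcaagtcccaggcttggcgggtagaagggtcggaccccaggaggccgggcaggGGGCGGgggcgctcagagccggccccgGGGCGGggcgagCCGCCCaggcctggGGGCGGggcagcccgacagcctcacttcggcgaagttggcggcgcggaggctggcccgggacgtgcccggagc

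The 4 windows were of 2 kinds. Those of Rgs5 and Atp13a5 held 6 and 2 CpG dinucleotides and no GC box, while those of Anpep and Notch3 held 28 and 25 CpG dinucleotides and 4 GC boxes each. Their GC content was 52.3% for Rgs5, 45.7% for Atp13a5, 72.3% for Anpep and 70.0% for Notch3, against a median of 52.7% over 32851 windows. A GC box stood in 35.7% of all windows. The RBPJ core TGGGAA, the element of Notch targets, was in none of the 4 windows on either strand, and in 3 of the 7 pericyte genes with an entry (Kcnj8, Abcc9 and Vtn), against 25.6% of all windows. The ACGTG form of the hypoxia response core was found in 1 of the 7, Notch3, with 2 matches, and in 19.6% of all windows. The GCGTG form of that core was not searched for. No motif matches overlapped in these windows. The RefSeq start of Anpep lies 12849 bases inside the annotated gene.

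Other genes enriched in pericytes were listed apart from the 10. Of 22 such genes 13 were tested, 1 rose and 0 fell, with a median log2 difference of -0.00. The riser was Gper1, which encodes a G protein-coupled oestrogen receptor (1.19 ± 0.223 to 2.32 ± 0.302 FPKM, limma adjusted p = 0.00349). Cspg4, the NG2 proteoglycan of pericytes and of oligodendrocyte precursors, measured 2.07 ± 0.288 and 2.27 ± 0.201 FPKM (adjusted p = 0.454), and Cox4i2, a subunit of cytochrome c oxidase, 2.08 ± 0.521 and 2.06 ± 0.679 FPKM (adjusted p = 0.939). Heyl, a Notch target of mural cells, was below the filter, at 0.788 ± 0.111 and 0.637 ± 0.209 FPKM.

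Among vascular smooth muscle markers only 6 of 15 reached the filter, of which 2 rose and 0 fell. Acta2, smooth muscle actin, rose from 2.44 ± 0.419 to 3.46 ± 0.394 FPKM (limma adjusted p = 0.0229) and Tpm2, a tropomyosin, from 2.15 ± 0.309 to 3.58 ± 0.801 FPKM (adjusted p = 0.0208). Myl9 was the most abundant of them, at 7.20 ± 0.758 and 6.76 ± 0.515 FPKM (adjusted p = 0.509). Of 9 tested fibroblast and meningeal markers 0 passed.

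On the side of the ligands, 3 of 6 tested genes of the PDGF list rose and 0 fell. Pdgfb, the ligand that acts on Pdgfrb, rose from 5.68 ± 0.154 to 12.1 ± 2.13 FPKM (limma adjusted p = 0.000754), Pdgfa rose from 10.5 ± 0.896 to 16.6 ± 2.01 FPKM (adjusted p = 0.00238) and the protease gene Plat from 4.96 ± 0.442 to 10.2 ± 1.61 FPKM (adjusted p = 0.000901). In the Notch list 4 of 17 rose and 0 fell, the largest being the ligand Dll4, below 1 FPKM in Ctrl (0.895 ± 0.155 to 2.55 ± 0.444 FPKM, adjusted p = 0.000883). Hes1, Notch4 and Maml1 were the others, and Jag1, a ligand known to act on Notch3, measured 1.70 ± 0.102 and 1.68 ± 0.155 FPKM (adjusted p = 0.925). Of 15 tested genes for other signals between endothelium and mural cells 5 rose and 2 fell. Angpt2, an antagonist of the receptor Tek in many settings, rose from 0.489 ± 0.192 to 4.08 ± 0.982 FPKM and was tested only through its Ep1 mean. Hbegf and Tgfbr2 also rose, while Tek fell from 2.53 ± 0.244 to 1.04 ± 0.162 FPKM.

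**Figure D4:**
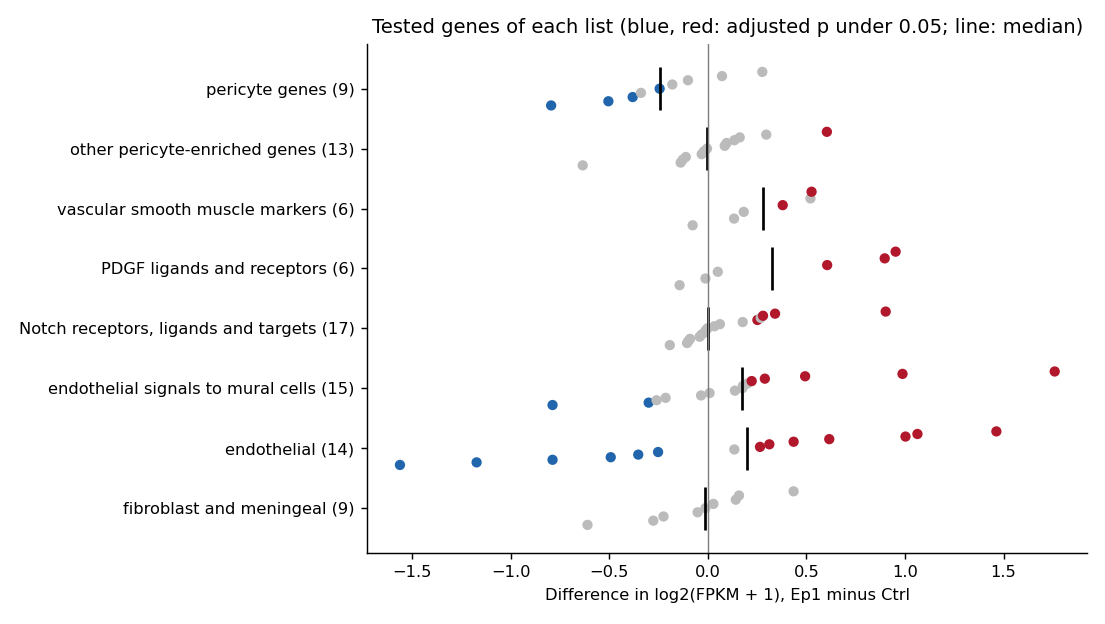
Difference between Ep1 and Ctrl in log2(FPKM + 1) (horizontal axis) for each tested gene of the pericyte genes and 7 other lists, with the number tested in brackets and the median as a line. Blue and red points passed an adjusted p of 0.05 downward and upward; the 9 tested pericyte genes hold 4 blue points and no red one.

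Markers of other cells moved with the groups beside the pericyte genes. Of 14 tested endothelial markers 7 rose and 6 fell, and their summed level ran from 94.4 to 103 FPKM in Ctrl and from 90.6 to 118 FPKM in Ep1. Smooth muscle markers summed to between 12.9 and 16.0 FPKM in Ctrl and between 16.3 and 18.6 in Ep1. Red blood cell markers summed to between 26.1 and 35.9 FPKM in Ctrl and between 88.5 and 295 FPKM in Ep1, with 4 of 5 tested genes higher. Astrocyte markers had 5 of 10 higher and 0 lower, summing to 544 to 564 and 591 to 634 FPKM, and microglia markers 3 of 9 higher and 5 lower, summing to 133 to 143 and 124 to 141 FPKM. The sums of fibroblast, neuron and oligodendrocyte markers overlapped between the groups. No marker of these lists was at 0 in any Ctrl library. The part of these cells in the levels of the pericyte genes was not tested.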

How the data were processed

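RNA sequencing of 8 mouse brain libraries was used as 1 table of FPKM deposited by the authors. Per the submitters' processing notes, Bowtie 0.12.2 and build mm8 were named without a role. GENCODE M21 holds 55227 of the identifiers, 99.4% of them with the same GRCm38 start and end, so coordinates are given in GRCm38. Gene length came from the same table. Counting tool, strandedness and filters are not given in the sources used here. The columns carry a letter and a number, which were read as Ctrl 1 to 4 and Ep1 1 to 4; this is an inference from the names, and 0 columns were left over.

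Multiplying FPKM by length gave steps of constant size in each library, whole to within 0.01 for 100% of genes checked, from which fragments were recovered. A gene was tested where its Ctrl or Ep1 mean reached 1 FPKM. The scale was log2(FPKM + 1), the tool limma 3.58.1 (R 4.3.3) with trended and robust empirical Bayes variance, and p-values were adjusted with Benjamini-Hochberg over all 14710 genes. A second fit with 3 groups gave each energy. All p-values are two-sided. The filter and the fit of Ep1 against Ctrl were run on simulated data, with the same variation beyond counting set for all genes. The fit with 3 groups was not run on them. Alternatives changed the pseudocount, filter, scaling, variance model, block, grouping and each library in turn. Python 3.11.15, numpy 2.4.6, pandas 2.3.3 and matplotlib 3.10.9 prepared tables and plots.

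The 10 genes and all lists were chosen with earlier results of these data known. All 10 were named whatever their result. From each list up to 4 called genes with the smallest p, and from each marker list its most abundant gene and up to 2 called genes, could be named, with 9 partners or relatives of the pericyte genes added whatever their result. Some genes this rule takes are given only in counts or are not reported here.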

Additional observations from a re-analysis of the deposited data

Results flagged for a closer look

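Higd1b in Ctrl 1, at 3.13 FPKM, lay far above the other 3 Ctrl libraries, by a gap larger than Dixon's critical value of 0.829 of the group's range for 4 samples. That library held 46 fragments of the gene, against 30 to 34 in the other Ctrl libraries. Chance flags about 1 in 20 groups, and 20 were examined. Without Ctrl 1 the log2 difference between Ep1 and Ctrl was -0.01 (limma adjusted p = 0.947).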

How the results depend on the processing

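For all of Ep1 against Ctrl, in every alternative that could be computed, Rgs5 and Atp13a5 (18 each) and Anpep (17) kept their downward calls, and no pericyte gene passed upward in limma; at single energies some of their calls were lost, as given above. The number of pericyte genes called lower was 3 to 5 when 1 library was left out, 5 with quantile normalization and 3 with the replicate block. Notch3 lost its call in 10 of 18 alternatives; with the block its adjusted p was 0.0842. Replicate numbers gave no sign of pairing: same-numbered libraries correlated between -0.05 and 0.06 in their deviations from the group means. Libraries with different numbers correlated between -0.07 and 0.04. The Ep1 deviations also hold any difference between the energies, so these values cannot settle whether libraries were paired. With a mean of 1 FPKM over all libraries, Anpep and Ndufa4l2 were no longer tested. Over all genes, 3841 were called for Ep1, 2726 with the replicate block and 2427 to 4141 without 1 library. Quantile normalization gave 1946 higher and 1996 lower genes against 2275 and 1566, voom 2137 and 2208, and leaving out mitochondrial genes with CT010467.1 1966 and 2045. For 10 J/cm2 the count was 1551, 695 with no filter and 173 to 2081 without 1 library. For 20 J/cm2 it was 3462, and 660 to 4335 without 1 library. Between the energies it was 1, 4 with no filter, and 0 to 1 without 1 library. The causes were not tested. Depth limits Ndufa4l2, Higd1b, Kcnj8 and Anpep, each under 100 fragments per library. A library left alone at its energy was assumed to vary like the others.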

Other observations

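Of the 22 further pericyte-enriched genes, 9 lay below the filter and were looked at in the fit without it. There 1 of the 9 was called lower and 0 higher. Over all 33219 genes of that fit, 1045 were called lower and 1772 higher. Art3, a mono-ADP-ribosyltransferase gene, measured 0.737 ± 0.122 FPKM in Ctrl and 0.246 ± 0.0624 FPKM in Ep1 (SD, n = 4 each), with no overlap between groups (log2 difference -0.48 ± 0.08 SE, limma adjusted p = 0.01003). P2ry14 did not overlap between groups either, at 0.223 ± 0.107 and 0.127 ± 0.0231 FPKM, and did not pass (adjusted p = 0.412). Ecm2, an extracellular matrix protein gene, measured 0.713 ± 0.168 and 0.431 ± 0.143 FPKM (adjusted p = 0.176). Tbx18, a transcription factor gene of mural cells, measured 0.572 ± 0.0440 and 0.467 ± 0.0542 FPKM (adjusted p = 0.441). In the other direction, Pla1a measured 0.450 ± 0.0701 and 0.694 ± 0.208 FPKM (adjusted p = 0.249) and Foxs1, a transcription factor gene, 0.398 ± 0.244 and 0.624 ± 0.336 FPKM (adjusted p = 0.542). Art3, P2ry14, Ecm2, Tbx18, Pla1a and Foxs1 were chosen after their values were seen.

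The level of Kcnj8 relative to Abcc9, the 2 subunits of 1 channel, was also chosen after the values were seen and is given without a test. The ratio of their FPKM was 1.53, 1.14, 0.794 and 1.27 in Ctrl 1 to 4 and 1.34, 1.94, 2.38 and 1.90 in Ep1 1 to 4. Apart from Ep1 1, which lay inside the Ctrl range, the Ep1 libraries lay above every Ctrl library. Kcnj8 rested on 29 to 79 fragments per library.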
